A study of Homo sapiens with 22 samples.

Results

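The kinesins, motor proteins that walk along or shorten microtubules, were examined in 3 liver cancer cell lines after the ubiquitin ligase COP1 was silenced. The members were all genes whose array annotation gives a symbol of KIF followed by a digit, together with KIFC1, KIFC2, KIFC3 and the accessory subunit KIFAP3. This gave 38 genes read by 44 of the 24526 probes, and 31 of the 38 genes were bright enough to be tested. Levels are the deposited bead intensities, which the authors had already background-subtracted and normalised, so a value near 0 or below it is a signal at the level of the array's background.

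Each line, Huh7, HepG2 or Hep3B, carried either a negative control siRNA or a COP1 siRNA, at 15 nM for 48 h, and total RNA was hybridised to Illumina HumanRef-8 v3 arrays. There were 3 control and 3 COP1 siRNA arrays of Huh7, and 4 and 4 of HepG2 and of Hep3B, 22 arrays in all. The labels number the replicates but do not say whether they were separate cultures, so the p-values measure the spread between these arrays, which may be technical. The series' design text names 1 COP1 siRNA, so loss of COP1 and any other effect of that siRNA cannot be told apart. In RNA of whole cultures, a change in the share of dividing cells and a change in RNA per cell cannot be told apart either.

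The labels were checked first. COP1 intensity lay between 265 and 302 in the COP1 siRNA arrays of Huh7 against 1671 to 1966 in the controls. It lay between 365 and 471 against 1451 to 1764 in HepG2, and between 442 and 597 against 2197 to 2503 in Hep3B. The log2 fold changes of COP1 in Huh7, HepG2 and Hep3B were -2.40 ± 0.15, -1.78 ± 0.11 and -2.05 ± 0.10 (SE) (limma adjusted p = 0.000377, 1.38e-10 and 3.93e-10). Of 8 hepatocyte markers, 6 (ALB, APOA1, APOA2, TTR, FGB and TF) were above background on 0 of the 8 arrays labelled Hep3B, where AFP and SERPINA1 averaged 100.4 and 74.0 in the controls. All 6 Huh7 arrays detected each of the 8 markers. All 8 HepG2 arrays detected 7 of them, and 6 of 8 detected FGB. The arrays labelled Hep3B thus gave no signal above background for most of the hepatocyte transcripts tested, and their values are given under that label. The endothelial and leukocyte markers VWF and PTPRC were above background on 0 of 22 arrays, whereas CD14 was above it on all 22. PECAM1, an endothelial marker, was above background on 6 of 6 Huh7, 5 of 8 HepG2 and 6 of 8 Hep3B arrays. The fibroblast marker PDGFRB was above it on 0 Huh7 arrays and on all 8 of HepG2 and of Hep3B, and COL1A1 on 1, 2 and 7 arrays of Huh7, HepG2 and Hep3B. COL3A1, CDH5 and CD3E were above background on at most 2 arrays of any line. Among the hepatocyte markers, COP1 siRNA lowered 1 in Huh7, TTR, by 2.32 ± 0.47 on the log2 scale (limma adjusted p = 0.0211). In HepG2 it raised 1, TTR (0.58 ± 0.13), and lowered 1, AFP (-0.35 ± 0.11). In Hep3B it changed 0 by limma (1 at an unadjusted p under 0.05). The 4 testable fibroblast, endothelial and leukocyte markers included 1 that fell in Huh7, 1 that rose and 1 that fell in HepG2, and 1 that rose and 3 that fell in Hep3B. CD14 fell by 2.08 ± 0.33 in Huh7 (limma adjusted p = 0.00817). It rose by 0.51 ± 0.11 in HepG2 and fell by 0.40 ± 0.10 in Hep3B. PDGFRB fell by 0.47 ± 0.14 in HepG2 and by 0.68 ± 0.11 in Hep3B, where COL1A1 fell by 0.31 ± 0.10. The shares of all features that changed in each line are given below with the kinesin counts. The part of all these markers in the kinesin results was not tested. The third COP1 siRNA array of Huh7 stood apart: its root mean square deviation from its group mean was 0.42 on the log2 scale, against 0.12 to 0.27 for the other 21 arrays. Some results in Huh7 are given with and without it, and the others include it.

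Kinesins use ATP to move along microtubules, and members differ in what they carry. One group works in dividing cells, where it builds the spindle, moves chromosomes and completes cytokinesis, and many of its genes are transcribed in late S, G2 and M phase. Another group carries vesicles, mitochondria, endosomes and ciliary components between the cell centre and its edge. The remaining members shorten microtubules, act at the primary cilium or centriole, or have less settled roles. By these roles the 31 tested genes comprised 10 mitotic kinesins (of 11 on the array), 15 transport kinesins (of 18) and 6 others (of 9).

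The promoters of 7 mitotic kinesins and of KIF5B are printed as examples that hold a CHR match, defined below. The COP1 siRNA response of these genes differed between lines, as described below, except for KIFC1, a mitotic kinesin that did not pass that test. KIF2A, KIF21A and KIF5C also passed it, but their windows held no CHR match and are not printed. Neither are those of KIF20A and KIF2C, mitotic kinesins with no CHR match that did not pass. The windows of KIF4A, a mitotic kinesin, and of KIF24 held a CHR match, but these genes did not pass and are not printed. KIF13B passed, and no window was found for it. The printed set therefore cannot show whether a differing response goes with the match. Each sequence runs 5′ to 3′ from 150 bases before the annotated start to 30 bases after it, from RefSeq on GRCh38.p14. Capitals mark CCAAT (or ATTGG, the same box on the other strand) and the letters TTTGAA or TTCGAA on either strand, the core of the cell cycle homology region (CHR). CHR and CCAAT boxes are known from promoters of genes used in G2 and M phase.
KIF11 (chr10:92592980-92593159, plus strand): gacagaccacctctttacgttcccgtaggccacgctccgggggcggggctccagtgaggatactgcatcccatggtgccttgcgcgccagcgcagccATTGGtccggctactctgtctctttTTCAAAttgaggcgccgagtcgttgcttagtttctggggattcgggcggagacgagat
KIF20B (chr10:89701440-89701619, plus strand): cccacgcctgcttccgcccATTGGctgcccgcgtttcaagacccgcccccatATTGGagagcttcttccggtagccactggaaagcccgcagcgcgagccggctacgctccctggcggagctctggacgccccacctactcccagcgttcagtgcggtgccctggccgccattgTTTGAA
KIF23 (chr15:69414199-69414378, plus strand): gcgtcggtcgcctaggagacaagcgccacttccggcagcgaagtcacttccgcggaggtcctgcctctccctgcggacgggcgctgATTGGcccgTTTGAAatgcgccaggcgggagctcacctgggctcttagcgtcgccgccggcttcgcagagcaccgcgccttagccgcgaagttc
KIF14 (chr1:200620722-200620901, minus strand): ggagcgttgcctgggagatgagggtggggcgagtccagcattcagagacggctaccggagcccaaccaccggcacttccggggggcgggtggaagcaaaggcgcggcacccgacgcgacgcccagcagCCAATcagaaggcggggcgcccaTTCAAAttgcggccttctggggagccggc
KIF18A (chr11:28108127-28108306, minus strand): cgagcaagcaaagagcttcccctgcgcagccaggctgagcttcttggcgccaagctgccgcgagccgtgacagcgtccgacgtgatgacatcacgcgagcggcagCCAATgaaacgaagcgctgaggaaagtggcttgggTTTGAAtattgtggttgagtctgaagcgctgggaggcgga
KIF15 (chr3:44761644-44761823, plus strand): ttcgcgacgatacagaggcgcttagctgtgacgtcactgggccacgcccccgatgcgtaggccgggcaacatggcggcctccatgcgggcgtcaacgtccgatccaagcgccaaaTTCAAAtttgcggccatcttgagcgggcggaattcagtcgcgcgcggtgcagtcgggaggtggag
KIFC1 (chr6:33391673-33391852, plus strand): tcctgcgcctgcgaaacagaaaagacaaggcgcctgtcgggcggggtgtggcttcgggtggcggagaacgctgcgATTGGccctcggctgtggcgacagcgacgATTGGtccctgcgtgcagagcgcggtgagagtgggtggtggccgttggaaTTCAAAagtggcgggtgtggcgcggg
KIF5B (chr10:32056396-32056575, minus strand): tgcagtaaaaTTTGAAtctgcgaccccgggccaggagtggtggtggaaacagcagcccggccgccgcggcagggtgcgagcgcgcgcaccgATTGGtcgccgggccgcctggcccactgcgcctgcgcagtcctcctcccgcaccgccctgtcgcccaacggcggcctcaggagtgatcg

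In the full windows of 300 bases, from 250 before the start to 50 after it, a CHR match was present for 8 of the 11 mitotic kinesins, for 1 of 13 transport kinesins (KIF5B) and for 1 of 6 other kinesins (KIF24). Windows were found for 30 of the 38 members. Among all 35116 start sites, 16.4% of windows held a CHR match, 34.6% a CCAAT box and 6.38% both. A CHR match and a CCAAT box stood in the same window for 7 of the 11 mitotic kinesins. In KIF11 the CCAAT box began at position -53 and the CHR match at position -28, counted from the start site. In KIF23 the pair lay at -64 and -55, and in KIF18A at -45 and -10. The promoter of KIF14 placed its CHR match just inside the transcript, at position 2. KIF20B had its CCAAT boxes upstream and its CHR matches at positions 25 and 31. KIF15 held a CHR match at -35 and no CCAAT box, KIF20A held 2 CCAAT boxes and no CHR match, and KIF2C held neither in this window. The match in KIF5B, a transport kinesin, lay farther out, near the upstream end of its printed sequence. These matches describe letters in the reference and say nothing of binding.

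**Figure D1:**
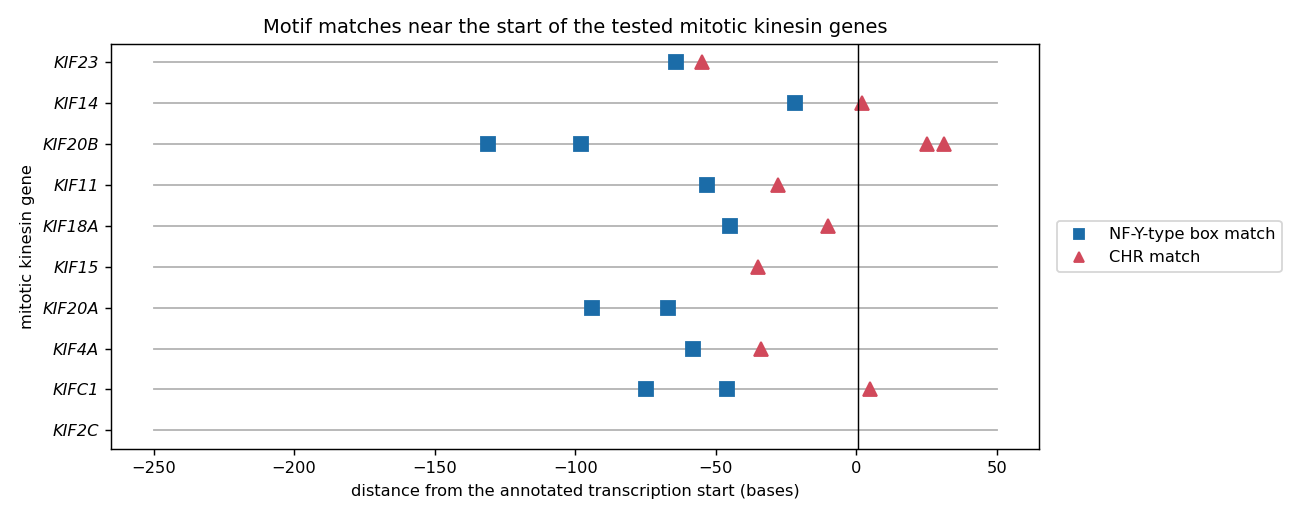
Positions of CCAAT boxes, the type of box that NF-Y binds (squares), and CHR matches (triangles) relative to the annotated transcription start (vertical line) for the 10 tested mitotic kinesin genes; the x axis is in bases and each grey line is a window of 300 bases. Where both are present the CCAAT box lies upstream of the CHR match, and KIF2C has neither.

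In cells given the control siRNA, the mitotic kinesins were highest in the arrays labelled Hep3B, while the transport kinesins split by gene, with several far higher in Huh7. All 10 tested mitotic kinesins had their highest control mean in Hep3B, a count not made for all features. Against Huh7, 8 of 10 were higher in Hep3B and 0 lower, where 36.0% of all 13870 features tested were higher and 32.7% lower. Against HepG2, 7 of 10 were higher and 0 lower, with backgrounds of 35.1% and 32.2%. Between HepG2 and Huh7, 3 of 10 were higher in HepG2 and 3 lower, with backgrounds of 29.7% and 28.0%. The 3 comparisons share their control arrays and are not independent of each other.

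KIF23, the motor of the centralspindlin complex that bundles the midzone for cytokinesis, had control intensities of 138, 121 and 155 in Huh7, of 175, 134, 200 and 140 in HepG2, and of 898, 979, 1125 and 966 in Hep3B. The groups of Huh7 and HepG2 overlapped, and every Hep3B array lay far above both. The log2 difference was 2.32 ± 0.12 (SE) against Huh7 and 2.17 ± 0.10 against HepG2 (limma adjusted p = 5.32e-18 and 1.1e-19). KIFC1, a minus-end motor that clusters spindle poles and extra centrosomes, reached a mean of 3322 in Hep3B, against 1093 in HepG2 and 721 in Huh7. KIF2C, which removes tubulin from microtubule ends at centromeres, averaged 2034 in Hep3B, 459 in HepG2 and 698 in Huh7. KIF4A, a chromosome-bound kinesin that works with PRC1 in the midzone, was 0.95 ± 0.12 and 1.33 ± 0.10 higher in Hep3B than in Huh7 and HepG2 on the log2 scale. Its probe may also read the near-identical KIF4B. KIF18A, which damps chromosome movements at metaphase, averaged 243 in Hep3B against 35.0 in HepG2 and 60.8 in Huh7. KIF20A and KIF20B, motors of late mitosis, differed in order: the log2 difference of HepG2 from Huh7 was 0.53 ± 0.13 for KIF20A and -0.84 ± 0.17 for KIF20B (limma adjusted p = 0.00069 and 4.69e-05). KIF20B was 0.44 ± 0.16 higher in Hep3B than in Huh7 (adjusted p = 0.0146), a call lost without control replicate 2 or 3 of Huh7 (adjusted p up to 0.108). KIF14 and KIF15 did not pass the test between Hep3B and Huh7.

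Among transport kinesins, 8 of 15 had their highest control mean in Huh7, 3 in HepG2 and 4 in Hep3B, a count not made for all features. The 8 include KIF5B and KIF17, for which no pair of lines passed the test. By the test, 4 were higher and 8 lower in Hep3B than in Huh7, where 36.0% and 32.7% of all features were. Against HepG2, 4 were higher and 5 lower in Hep3B (35.1% and 32.2% of all features). Between HepG2 and Huh7, 4 were higher in HepG2 and 5 lower (29.7% and 28.0%). KIF13B, a kinesin-3 motor, averaged 1340 in Huh7, 291 in HepG2 and 56.8 in Hep3B, and its log2 difference of Hep3B from Huh7 was -3.43 ± 0.12 (limma adjusted p = 5.54e-23). KIFAP3, which links the kinesin-2 motor pair to its cargo, followed the same order with means of 621, 260 and 154. KIF5C, a conventional kinesin heavy chain best known from neurons, averaged 201 in Huh7 and 40.6 in Hep3B and was not above background on any HepG2 array. It was therefore at least 2.83-fold higher in Huh7 and at least 1.19-fold higher in Hep3B than in HepG2, both bounds being set against the lowest signal counted as above background. KIF1B, which carries mitochondria and synaptic vesicle precursors, had another order, with 2052 in HepG2, 1048 in Huh7 and 430 in Hep3B. KIF1C, a relative of KIF1B that moves vesicles, averaged 374 in Hep3B, 205 in HepG2 and 98.2 in Huh7. KIF16B, an early endosome motor, was highest in HepG2 at 95.1 against 36.1 in Huh7 and 15.1 in Hep3B. KIF5B, the conventional kinesin heavy chain of most tissues, did not differ by the test in any pair of lines, with means of 412, 409 and 391 in Huh7, HepG2 and Hep3B. Among the other kinesins, KIF12 averaged 110 in Huh7 and was not above background on any control array of HepG2 or Hep3B, so it was at least 1.89-fold higher in Huh7 than in either. KIF7, a ciliary regulator of Hedgehog signalling, was higher in Hep3B (111) than in HepG2 (56.2) and Huh7 (16.6).

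**Figure D2:**
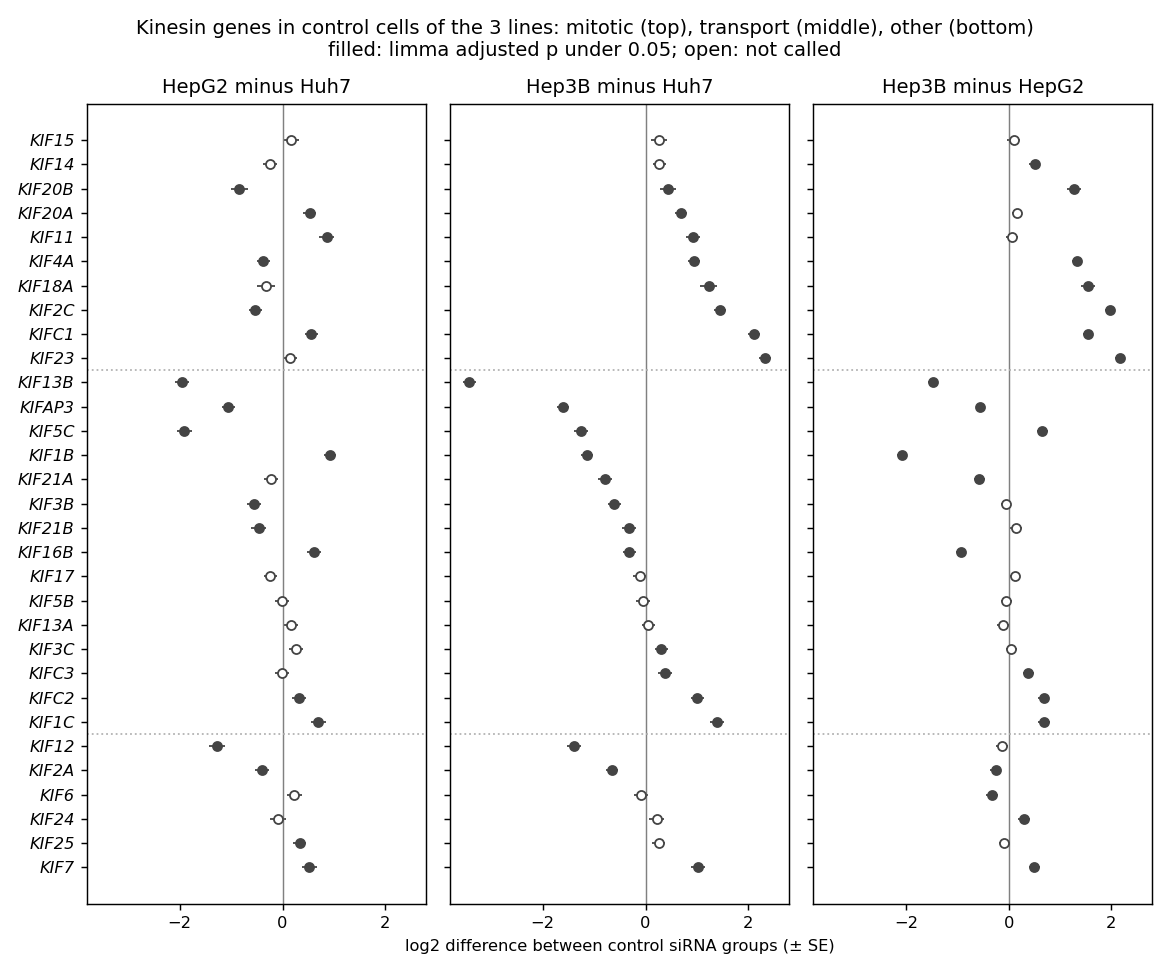
Log2 difference (x axis, ± SE) between the control siRNA groups of 2 lines for the 31 tested kinesin genes (y axis), ordered within each role by the difference of Hep3B from Huh7. Filled points passed limma's test at the adjusted threshold of 0.05; the 10 mitotic kinesins lie at or right of 0 in both panels with Hep3B.

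After COP1 siRNA, 2 of 31 kinesin genes passed the test in Huh7, 13 in HepG2 and 9 in Hep3B. On simulated data, this test recovered 4.48% of log2 changes of 0.5 for Huh7, against 70.1% for HepG2 and 97.0% for Hep3B. At a log2 change of 1 it recovered 56.7% for Huh7 and 100% for each other line. The simulation changed 66 or 67 features per size in each line among 13870, all brighter than the median feature. Such changes were far rarer than the calls in the data, so these rates need not be those of the real test. A low count for Huh7 does not show that its kinesins responded less. In Huh7, 1 rose and 1 fell, where 9.39% of all features changed (4.04% higher and 5.35% lower). In HepG2, 2 rose and 11 fell, where 24.5% of all features changed (12.3% higher and 12.1% lower). In Hep3B, 8 rose and 1 fell, where 28.3% changed (14.7% higher and 13.5% lower). Over the 31 members the median log2 fold changes of Huh7, HepG2 and Hep3B were 0.13, -0.10 and 0.03, and those over all features lay between -0.01 and 0.02. Of the 31 genes, 17 passed the test in at least 1 line and 5 rose in 1 line and fell in another. KIF11 and KIFAP3 rose in 2 lines each, and 0 changed in the same direction in all 3. These counts across lines were not made for all features. Without the third COP1 siRNA array, 4 genes passed in Huh7: KIF11 rose, and KIF13B, KIF12 and KIF5B fell, where 21.3% of all features changed.

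**Figure D3:**
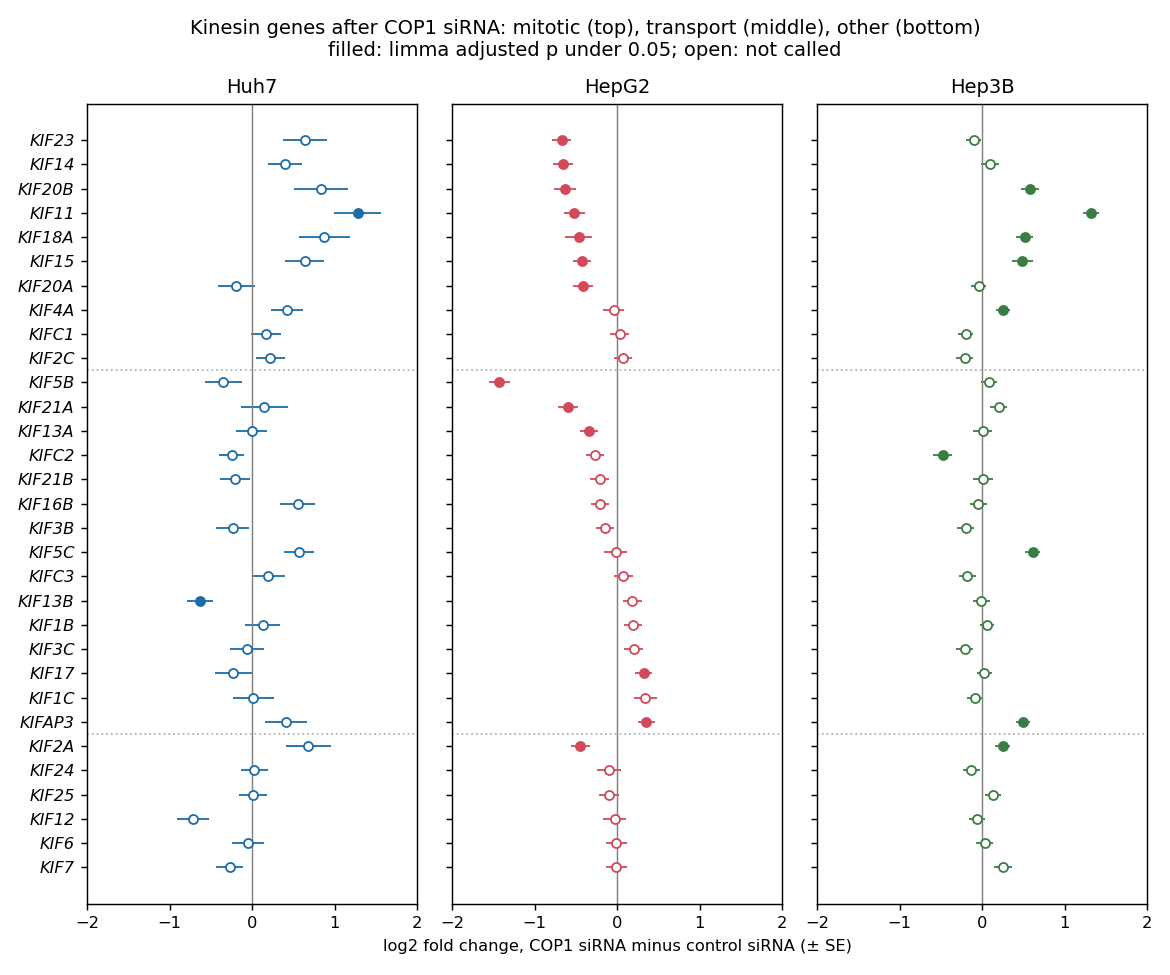
Log2 fold change of COP1 siRNA over control siRNA (x axis, ± SE) for the 31 tested kinesin genes in Huh7, HepG2 and Hep3B, with mitotic, transport and other kinesins separated by dotted lines. Filled points passed limma's test at the adjusted threshold of 0.05; 7 mitotic kinesins are filled left of 0 in HepG2 and 5 right of 0 in Hep3B.

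The mitotic kinesins that passed limma's test fell in HepG2 and rose in Hep3B. In HepG2, 7 of 10 fell and 0 rose, with a median log2 fold change of -0.45, where 12.1% of all features fell. In Hep3B, 5 of 10 rose and 0 fell, with a median of 0.17, where 14.7% of all features rose. In Huh7, 1 rose and 0 fell, where 4.04% of all features rose. The Huh7 median was 0.53, against 0.01 over all features, and 9 of 10 had a positive fold change. The Huh7 count of 1 that rose was 6 with 1 spread shared by all arrays. It was 4 with weights by single array, where 1 fell. With the group weights of the fit of all arrays it was 3, as it was without COP1 siRNA replicate 1. It was 0 without COP1 siRNA replicate 2 or any 1 of the controls. The shares of all features under these settings are not given here. At an unadjusted p under 0.05, 5 were higher and 0 lower in Huh7, 0 higher and 7 lower in HepG2, and 5 higher and 2 lower in Hep3B. Counts at this unadjusted threshold were not made for all features. Without the third COP1 siRNA array, the Huh7 median was 0.29 and the same 9 to 1 division of signs held. That array's mitotic kinesins lay 0.43 above the mean of its group on the log2 scale, and the deviation of replicate 1 was -0.34.

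KIF11, the tetrameric motor that slides the spindle poles apart, had control intensities of 188, 150 and 120 in Huh7 and COP1 siRNA intensities of 322, 402 and 796. In HepG2 the controls were 347, 279, 306 and 423, and the COP1 siRNA arrays 226, 226, 168 and 230. In Hep3B the controls were 304, 369, 390 and 364, and the COP1 siRNA arrays 1084, 982, 842 and 1108. The groups did not overlap in any line, and the COP1 siRNA arrays were higher in Huh7 and Hep3B and lower in HepG2. KIF11 rose by 1.28 ± 0.28 (SE, log2) in Huh7 and by 1.32 ± 0.10 in Hep3B, and fell by 0.52 ± 0.12 in HepG2 (limma adjusted p = 0.0274, 5.65e-08 and 0.00326). In Huh7 the call was lost when COP1 siRNA replicate 2 was left out (adjusted p = 0.067) or control replicate 1, 2 or 3 (0.0892, 0.122 and 0.137). Without COP1 siRNA replicate 3 the rise was 0.95 (adjusted p = 0.00129). The response of HepG2 minus that of Huh7 was -1.80 ± 0.28 (adjusted p = 3.85e-05), and that of Hep3B minus that of HepG2 was 1.84 ± 0.17 (adjusted p = 7.84e-10). The Hep3B response differed from the Huh7 response by 0.04 ± 0.27 and did not pass the test.

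KIF20B, a motor needed for the last step of cytokinesis, had control intensities of 263, 143, 158 and 225 in HepG2 and of 88.8, 125, 87.1 and 94.1 after COP1 siRNA. In Hep3B the controls were 531, 548, 632 and 581, and the COP1 siRNA arrays 1039, 779, 745 and 1041. In Huh7 the controls were 486, 401 and 335, and the COP1 siRNA arrays 441, 778 and 1337. Groups did not overlap in HepG2 or Hep3B, and in Huh7 COP1 siRNA replicate 1 lay within the control range. KIF20B fell by 0.63 ± 0.13 in HepG2 and rose by 0.58 ± 0.11 in Hep3B (limma adjusted p = 0.00134 and 0.000692). Its fold change in Huh7 was 0.83 ± 0.33 (adjusted p = 0.151), or 0.47 without the third COP1 siRNA array (adjusted p = 0.122).

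KIF23 had COP1 siRNA intensities of 81.8, 75.0, 75.1 and 60.1 in HepG2, all below the control values given above, and fell by 0.67 ± 0.11 (limma adjusted p = 0.000142). In Hep3B the COP1 siRNA values of 990, 934, 872 and 874 overlapped the controls. In Huh7 they were 215, 166 and 442, all above the controls, with a fold change of 0.64 ± 0.27 (adjusted p = 0.177). Without the third COP1 siRNA array it was 0.32 (limma adjusted p = 0.173). A second KIF23 probe, above background on 9 arrays, did not pass the test in any line.

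The remaining mitotic kinesins that changed followed the same division between HepG2 and Hep3B or changed in 1 line. KIF15, which supports KIF11 in keeping the spindle bipolar, fell by 0.43 ± 0.11 in HepG2 and rose by 0.49 ± 0.13 in Hep3B (limma adjusted p = 0.00618 and 0.00862). Its Hep3B groups overlapped, with 175 to 290 in the controls and 288 to 436 after COP1 siRNA. KIF18A rose by 0.52 ± 0.10 in Hep3B (adjusted p = 0.00105), from 208 to 274 in the controls to 345 to 456. In HepG2 it fell by 0.47 ± 0.16 (adjusted p = 0.0393) near background, with overlapping groups of 10.1 to 53.5 and -13.4 to 26.8, and the call was lost without any 1 of 5 of the 8 arrays, control replicates 1, 2 and 4 and COP1 siRNA replicates 2 and 4 (adjusted p up to 0.141). KIF14, which anchors citron kinase at the midbody, fell by 0.65 ± 0.12 in HepG2 (adjusted p = 0.000298) and did not pass the test in Hep3B (0.09 ± 0.11). KIF20A, which brings the chromosomal passenger complex to the midzone, fell by 0.42 ± 0.12 in HepG2 (adjusted p = 0.014), or 0.0573 without COP1 siRNA replicate 1. KIF4A rose by 0.26 ± 0.09 in Hep3B (adjusted p = 0.035), a call lost without control replicate 1 or 4 or COP1 siRNA replicate 1, 3 or 4 (adjusted p up to 0.106). KIFC1 and KIF2C did not pass the test in any line, with fold changes from -0.21 to 0.22.

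**Figure D4:**
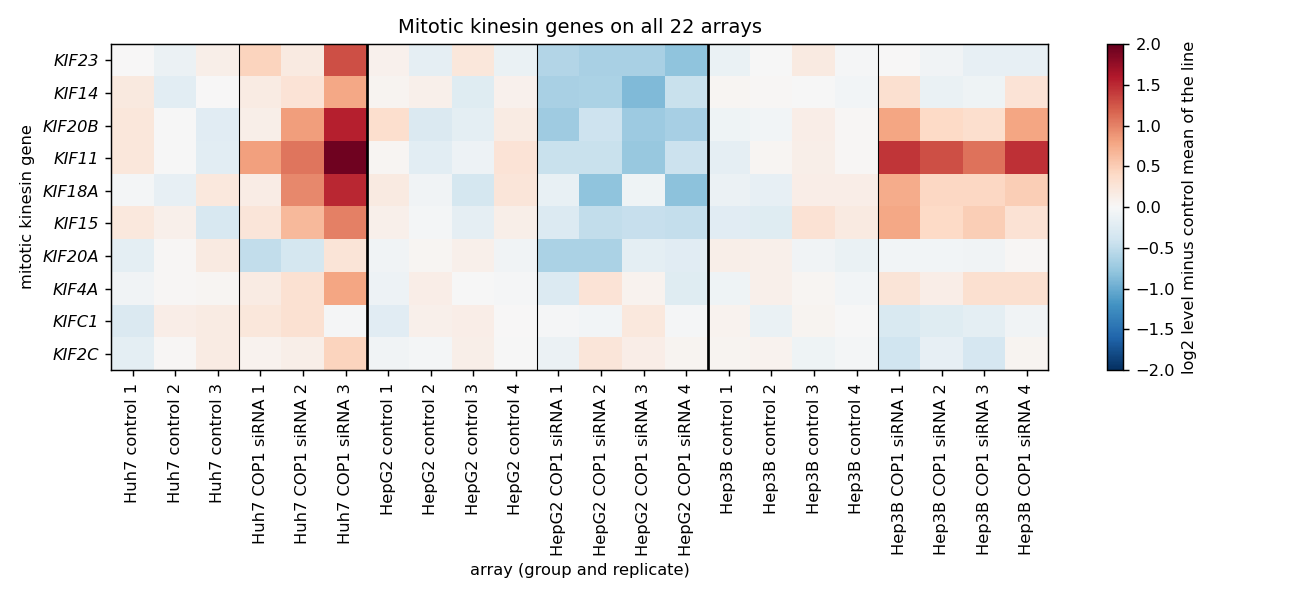
Log2 level of the 10 tested mitotic kinesin genes (rows) on each of the 22 arrays (columns), minus the mean of the same line's control arrays; red is higher and blue lower. HepG2 COP1 siRNA columns are mostly blue in the upper 7 rows, Hep3B ones are red for KIF11, KIF20B, KIF18A and KIF15, and the third Huh7 COP1 siRNA column is the reddest of its group.

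Of the 15 tested transport kinesins, 8 passed the test in at least 1 line, a count not made for all features. The transport kinesin with the lowest p in HepG2 was KIF5B. In Huh7, 1 of 15 fell and 0 rose, where 5.35% of all features fell and 4.04% rose. In HepG2, 3 fell and 2 rose, where 12.1% fell and 12.3% rose. In Hep3B, 1 fell and 2 rose, where 13.5% fell and 14.7% rose. At an unadjusted p under 0.05 by limma, 1 was lower and 2 were higher in Huh7, a count not made for all features. The median log2 fold changes were -0.01, -0.02 and 0.01 in Huh7, HepG2 and Hep3B.

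KIF5B had control intensities of 459, 323, 344 and 512 in HepG2 and COP1 siRNA intensities of 92.5, 98.6, 105 and 115. In Huh7 the controls were 518, 364 and 353, and the COP1 siRNA arrays 234, 270 and 429. In Hep3B the controls were 367, 342, 449 and 404, and the COP1 siRNA arrays 458, 413, 378 and 421. The groups lay far apart in HepG2 and overlapped in Huh7 and Hep3B. In HepG2 the mean intensity after COP1 siRNA was 25.1% of the control mean, and KIF5B fell by 1.43 ± 0.12 on the log2 scale (limma adjusted p = 2.37e-08). Its fold change was -0.35 ± 0.23 in Huh7 (adjusted p = 0.374) and 0.08 ± 0.09 in Hep3B (adjusted p = 0.57). Without the third COP1 siRNA array it fell by 0.56 in Huh7 (adjusted p = 0.0313). The HepG2 response was below the Huh7 response (-1.08 ± 0.27, adjusted p = 0.00612), and the Hep3B response was 1.51 ± 0.17 above that of HepG2 (adjusted p = 2.22e-08).

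KIFAP3 rose by 0.35 ± 0.11 in HepG2 and by 0.49 ± 0.09 in Hep3B (limma adjusted p = 0.0171 and 0.000318), with groups that did not overlap in either line. The HepG2 call was lost without control replicate 3 (adjusted p = 0.0547). The fold change in Huh7 was 0.41 ± 0.26 (adjusted p = 0.357). KIF5C rose by 0.61 ± 0.09 in Hep3B (adjusted p = 4.36e-05), from 35.9 to 52.4 in the controls to 90.5 to 113, and stayed at background in HepG2. In Huh7 the KIF5C groups did not overlap (169 to 218 against 277 to 421) and the fold change was 0.57 ± 0.18 (adjusted p = 0.0875). KIF13B fell by 0.64 ± 0.16 in Huh7 (adjusted p = 0.0395), from 1275 to 1411 in the controls to 736 to 940. This call was lost without any 1 control array or COP1 siRNA replicate 2 (adjusted p up to 0.146), and it stood at 0.0151 without COP1 siRNA replicate 3. KIF21A, which restrains microtubule growth at the cell cortex, fell by 0.60 ± 0.12 in HepG2 (adjusted p = 0.000731), from 118 to 202 in the controls to 59.5 to 86.4. KIFC2, a minus-end motor known from mouse neurons, fell by 0.48 ± 0.12 in Hep3B (adjusted p = 0.00571), from 129 to 203 in the controls to 58.4 to 119.

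Another pair of transport kinesins passed the test in HepG2 close to background. KIF17, a kinesin-2 motor that acts as a homodimer, was called higher after COP1 siRNA (limma adjusted p = 0.0282), with 0 of 4 control arrays and 3 of 4 COP1 siRNA arrays above background. The call was lost with 1 spread shared by all arrays (adjusted p = 0.0839) and without control replicate 3 or 4 or COP1 siRNA replicate 1 or 4 (adjusted p up to 0.0724). KIF13A, a recycling endosome motor, was called lower (limma adjusted p = 0.0275), with 1 of 4 control arrays and 0 of 4 COP1 siRNA arrays above background. No fold is given for either gene, since every array of 1 of the groups lay at background. The KIF13A call was lost with the shared spread (adjusted p = 0.0721) and without any 1 of control replicates 1, 2 and 4 and COP1 siRNA replicates 1, 3 and 4 (adjusted p up to 0.0893). KIF1B was read by 3 probes that disagreed in Hep3B. The brightest gave 0.06 ± 0.08, the second rose by 0.45 ± 0.10 (adjusted p = 0.00221) and the third gave 0.13 ± 0.10. The other transport kinesins with no call in any line, KIF16B, KIF1C, KIF21B, KIF3B, KIF3C and KIFC3, had fitted log2 fold changes between -0.24 and 0.55.

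Of the 6 other kinesins tested, KIF2A alone changed. KIF2A, which shortens microtubules at spindle poles and in growing axons, had control intensities of 358, 397, 382 and 414 in HepG2 and COP1 siRNA intensities of 276, 213, 335 and 243. In Hep3B the controls were 310, 293, 327 and 327, and the COP1 siRNA arrays 413, 356, 346 and 438. In Huh7 the controls were 570, 574 and 471, and the COP1 siRNA arrays 666, 743 and 1468. The groups did not overlap in any line, and the COP1 siRNA arrays were lower in HepG2 and higher in the other 2 lines. KIF2A fell by 0.45 ± 0.12 in HepG2 (limma adjusted p = 0.00693) and rose by 0.25 ± 0.09 in Hep3B (adjusted p = 0.049). The rise was lost without control replicate 1, 2, 3 or 4 or COP1 siRNA replicate 1 or 4 (adjusted p up to 0.127). In Huh7 the fold change was 0.68 ± 0.27 (adjusted p = 0.156), or 0.35 without the third COP1 siRNA array. KIF12 in Huh7, named after its values were seen, went from 80.1, 116 and 133 to 40.7, 15.4 and 56.8, with a fold change of -0.72 ± 0.20 (adjusted p = 0.0558) that passed the test without the third COP1 siRNA array (-0.84, adjusted p = 0.00337). KIF6, KIF7, KIF24 and KIF25 had fold changes between -0.27 and 0.25.

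**Figure D5:**
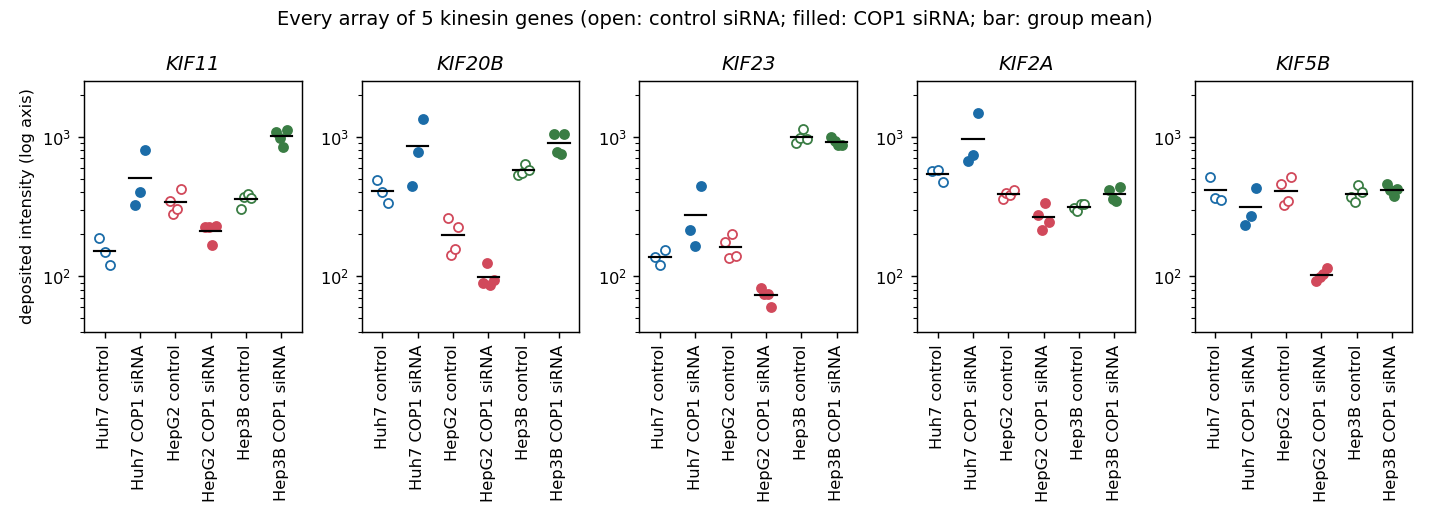
Deposited intensity (log axis) of KIF11, KIF20B, KIF23, KIF2A and KIF5B on each array, by line and siRNA; open points are control siRNA, filled points COP1 siRNA and bars group means. KIF11 is higher after COP1 siRNA in Huh7 and Hep3B and lower in HepG2, and KIF5B separates in HepG2, where it falls from 323 to 512 in the controls to 92.5 to 115.

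The response to COP1 siRNA differed between lines for 11 of 31 kinesin genes by limma's F test across all 6 groups, where 34.9% of all features passed. These were 6 of 10 mitotic kinesins (KIF11, KIF20B, KIF23, KIF18A, KIF15 and KIF14), 4 of 15 transport kinesins (KIF5B, KIF21A, KIF5C and KIF13B) and 1 of 6 others (KIF2A). The smallest adjusted p was 2.03e-09 for KIF11, followed by 8.98e-08 for KIF5B, 1.52e-05 for KIF20B, 0.000212 for KIF23 and 0.000278 for KIF2A. Without the third Huh7 COP1 siRNA array, 14 genes passed, where 39.5% of all features did. The largest adjusted p among the 11 was 0.0316, for KIF13B, and this call was lost without Huh7 control replicate 1, Huh7 COP1 siRNA replicate 1 or 2, or HepG2 COP1 siRNA replicate 3 (adjusted p up to 0.157). A positive fold change in Huh7 and Hep3B with a negative one in HepG2, a pattern described after the values were seen, was found for 6 of 10 mitotic, 2 of 15 transport and 2 of 6 other kinesins, and for 16.2% of all features.

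Genes that act with the kinesins were listed by function. Of 19 tested mitotic partners, HepG2 had 4 that fell and 0 that rose, Hep3B had 7 that rose and 2 that fell, and Huh7 had 1 that rose. Over all features, 12.1% fell and 12.3% rose in HepG2, 14.7% rose and 13.5% fell in Hep3B, and 4.04% rose in Huh7. At an unadjusted p under 0.05 by limma, 1 partner was higher and 5 were lower in HepG2, and 7 were higher and 1 lower in Huh7. These unadjusted counts were not made for all features. The DNA topoisomerase TOP2A, the spindle protein HMMR and the cyclin CCNA2 fell in HepG2, with log2 fold changes of -0.94 ± 0.13, -0.87 ± 0.13 and -0.53 ± 0.13 (limma adjusted p = 1.18e-05, 5.1e-05 and 0.00391). PRC1, the microtubule bundler that KIF4A and KIF14 bind, rose by 0.89 ± 0.10 in Hep3B, the centromere kinesin CENPE by 0.67 ± 0.12 and HMMR by 0.61 ± 0.11 (limma adjusted p = 6.84e-06, 0.000365 and 0.000386). The cyclin CCNB1 rose by 0.86 ± 0.21 in Huh7 (limma adjusted p = 0.0352). The median log2 fold changes of the partners were 0.53, -0.13 and 0.06 in Huh7, HepG2 and Hep3B. The F test between lines was passed by 12 of 19, and by 34.9% of all features.

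For the lists that follow, the shares over all features were 12.3% higher and 12.1% lower in HepG2, and 14.7% and 13.5% in Hep3B. In Huh7, 9.39% of all features changed. Of 16 tested cargo adaptors, 4 rose and 2 fell (25% and 12.5%) in each of HepG2 and Hep3B by limma. None changed in Huh7 (1 at an unadjusted p under 0.05). Kinectin, KTN1, a kinesin anchor of the endoplasmic reticulum, fell by 0.56 ± 0.12 in HepG2 and rose by 0.65 ± 0.11 in Hep3B (limma adjusted p = 0.00139 and 0.000181). In HepG2 the scaffold MAPK8IP2 rose by 0.99 ± 0.15 and the light chain KLC4 by 0.41 ± 0.12. The mitochondrial GTPases that recruit motors diverged in Hep3B, where RHOT1 rose by 0.54 ± 0.09 and RHOT2 fell by 0.57 ± 0.08. Of 14 tested genes of intraflagellar transport, the traffic that kinesin-2 drives inside cilia, 1 rose in HepG2 (IFT52, 0.42 ± 0.12), 1 rose in Hep3B (IFT74, 0.35 ± 0.10) and 2 fell there (IFT27 and IFT43). Of 19 genes of dynein and dynactin, the motor system that runs opposite to most kinesins, HepG2 had 6 that rose and 2 that fell, and Hep3B had 5 that rose and 1 that fell. DYNLT1, DCTN3 and DCTN2 led the rises in HepG2, at 0.64 ± 0.13, 0.49 ± 0.11 and 0.43 ± 0.10. In Huh7, 0 genes passed limma's test in either list, and 1 of each did at an unadjusted p under 0.05. In Hep3B DCTN4 and PAFAH1B1 rose by 0.52 ± 0.09 and 0.47 ± 0.10, and DYNLL2 fell by 0.59 ± 0.09.

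The 7 members that could not be tested, KIF19, KIF1A, KIF26B, KIF27, KIF2B, KIF3A and KIF5A, were above background on fewer than 3 arrays, with group means between -16.6 and 16.6. KIF1A and KIF5A are known for axonal transport, KIF3A is the partner of KIF3B in kinesin-2, and KIF19 trims motile cilia. Across the 6 groups, between 22 and 26 of the 38 genes were above background on every array of the group and between 7 and 9 on none.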

How the data were processed

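Total RNA of 22 samples was read on Illumina HumanRef-8 v3 bead arrays. The deposited intensities were background-subtracted and close to 1 shared distribution, with array medians of 24.3 to 24.5 and 23.7% of values below 0, as seen in the file, and made with GenomeStudio 2009.1 per the submitters' processing notes; how they were normalised is not given in the sources used here. One table of unnormalised values, with 44 columns whose names match no label, was not used.

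Values were corrected with limma 3.58.1 (R 4.3.3; normexp, offset 50), quantile-normalised and put on the log2 scale, which understates changes of dim genes. A probe counted as above background over an intensity of 21.8, the 0.98 quantile of the sizes of values below 0. Probes above it on at least 3 arrays (16563 of 24526) were kept, with the brightest probe per gene, giving 13870 features, of which 12257 carried a gene name. Of all probes, 21834 had 1 gene symbol and 2692 none.

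Each line's siRNA effect was fitted alone with lmFit and eBayes. Responses between lines and control levels came from 1 fit of all groups with arrayWeights by group. Benjamini-Hochberg adjustment ran over all features, with calls at 0.05. No share of all features is given at an unadjusted p. The number of arrays limits the precision. The replicate numbers did not pair the arrays (same-number correlations -0.28 to 0.10). The fits were tested on simulated data. Alternatives covered background, normalisation, spread, filter, probe choice, threshold, replicate block and each array left out.

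The members and gene lists were chosen with earlier results of these data known. Named genes were all members, with every array's values for members called at an absolute log2 fold change of at least 0.8 in a line and for the 5 ranked first by the F test; of other genes, COP1, the markers and, for every list in every line, up to 3 called genes of lowest adjusted p. Promoter windows are RefSeq's on GRCh38.p14, searched with Python 3.11.15; figures used matplotlib 3.10.9.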

Additional observations from a re-analysis of the deposited data

Results flagged for a closer look

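Within the groups of 4 arrays, 9 of 124 gene and group combinations had 1 array far from the other 3, by Dixon's ratio of the gap to the group's range, and chance flags about 1 in 20. In HepG2 after COP1 siRNA, KIF11 was low on replicate 3 (168 against 226 to 230, ratio 0.942), KIF15 high on replicate 1 (154 against 122 to 126, ratio 0.864), KIF24 low on replicate 1 (-8.28 against 30.8 to 39.1, ratio 0.859) and KIFC1 high on replicate 3 (1278 against 1041 to 1075, ratio 0.845). In the HepG2 controls, KIF14 was low on replicate 3 (111 against 152 to 161, ratio 0.83), KIF1C high on replicate 3 (281 against 176 to 187, ratio 0.883) and KIF3B high on replicate 4 (689 against 577 to 591, ratio 0.861). In Hep3B, KIF17 was high on COP1 siRNA replicate 1 (20.9 against 5.85 to 8.15, ratio 0.835), below the background threshold on all 4 arrays, and KIF5C high on control replicate 1 (52.4 against 35.9 to 38.1, ratio 0.856).

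The response to COP1 siRNA differed between the 3 lines by limma's F test for 11 of 31 kinesin genes, near the 34.9% of all features that passed. The adjusted p was 2.03e-09 for KIF11, 8.98e-08 for KIF5B, 1.52e-05 for KIF20B, 0.000212 for KIF23, 0.000278 for KIF2A and 0.000359 for KIF18A. It was 0.000365 for KIF15, 0.000448 for KIF14, 0.000926 for KIF21A, 0.00823 for KIF5C and 0.0316 for KIF13B.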

How the results depend on the processing

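The counts in this paragraph are given without the shares of all features under the same settings. The number of kinesin genes changed in Huh7, 2 with the settings reported, depended on the processing. It was 1 without normexp, with an offset of 16 or with the deposited values floored at 16, and 0 at an adjusted p under 0.01. It was 11 with 1 spread shared by all arrays, 14 with weights by single array and 5 with the group weights of the fit of all arrays. With the replicate block it was 0 in Huh7, 13 in HepG2, 7 in Hep3B and 10 for the F test between lines, and only the Huh7 count moved by over 1.5 times; the arrays share only a number. Leaving out 1 array at a time gave 0 to 4 in Huh7, 10 to 13 in HepG2, 7 to 9 in Hep3B, 10 to 14 for the F test, and 15 to 19, 19 to 24 and 18 to 20 for HepG2 against Huh7, Hep3B against Huh7 and Hep3B against HepG2. In HepG2 the count fell from 13 to 8 with the shared spread and to 8 at an adjusted p under 0.01. The cause was not tested. Over single results, 5968 alternatives kept the side of the threshold, 152 lost a call, 66 gained one and 0 reversed. A change of sign in an uncalled result did not count as a reversal. The KIF21A fold change in Huh7, for example, ran from -0.19 to 0.42. The Hep3B count fell from 9 to 6 with the shared spread. The counts for the F test and for the control cells, and the fold change of COP1, moved by less than 1.5 times under every alternative run. The mitotic kinesins that fell in HepG2 numbered 5 to 7, those that rose in Hep3B 3 to 5 and those that rose in Huh7 0 to 6, over these alternatives. In the other direction, 0 rose in HepG2, and 0 to 1 fell in each of Hep3B and Huh7. Signals near background, as for KIF13A, KIF17 and KIF18A in HepG2, limit what can be measured.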
